A study of Homo sapiens with 26 samples.

Results

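The 9 genes described here encode carriers that move amino acids across the plasma membrane, namely SLC7A5, SLC7A11, SLC3A2, SLC7A1, SLC38A1, SLC38A2, SLC1A4, SLC1A5 and SLC6A9. They are 9 of the 63086 genes in the count tables, and all 9 were found. They were chosen by function and with earlier results of these same counts known, in which SLC7A11 and other genes of the amino acid stress response were higher in 1 of the cell populations. Their own differences between groups are therefore given as a description, with standard errors and without p-values. Poly(A) RNA was sequenced from cleared lysates of HCT116, a human colorectal carcinoma line that carried a tetracycline-controlled OsTIR1 gene with puromycin resistance (Tet-OsTIR1-PURO) and had lost IGF2BP2 and IGF2BP3 by gene knockout (IGF2BP2 KO, IGF2BP3 KO). Into these cells a lentivirus had brought mCherry-IGF2BP1, an RNA-binding protein that the line lacks, as WT, as S181E or Y396E (a glutamate in place of a serine or a tyrosine of a disordered linker), or as RQ (glutamines in place of arginines of the first linker). Each of the 4 populations was sorted through a narrow mCherry gate and received either PBS (control) or 500 µM sodium arsenite for 2 h, with 3 libraries from separately plated dishes per group. The parental HCT116 cells gave 1 library per treatment. Every mutant is 1 transduced and sorted population, so that mutation and population cannot be told apart.

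Amino acid carriers work as uniporters, sodium-coupled importers or obligatory exchangers, and several of them are paired subunits. SLC7A5 (LAT1) brings in leucine and other large neutral amino acids, and SLC7A11 (xCT) brings in cystine in exchange for glutamate, which feeds glutathione synthesis. Both are light chains that reach the membrane only when bound to the heavy chain SLC3A2 (CD98hc, 4F2hc). SLC7A1 (CAT1) carries arginine and lysine. SLC38A1 (SNAT1) and SLC38A2 (SNAT2) import glutamine and other small neutral amino acids with sodium, and SLC38A2 is the classical carrier that cells induce when amino acids run short. SLC1A5 (ASCT2) and SLC1A4 (ASCT1) exchange neutral amino acids, glutamine being a main substrate of the former and serine and alanine of the latter. SLC6A9 (GlyT1) imports glycine. Many of these genes are known targets of ATF4, the transcription factor made when the kinases of the integrated stress response phosphorylate eIF2α. Arsenite, a source of oxidative stress, activates this response, and SLC7A11 is in addition a target of NRF2, the regulator of antioxidant genes.

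Promoter windows of RefSeq (GRCh38.p14, 250 bases before to 50 after an annotated start) were available for 8 of the 9 genes, in 14 windows, since some genes have several starts. SLC7A11 had no window. A pair of short motifs was searched on both strands. The C/EBP-ATF response element, read as TGATGNAA, is the site through which ATF4 and its C/EBP partners act, and the antioxidant response element, read as TGACNNNGC, is that of NRF2. The first was found in 5 of the 14 windows, against 3.62% of all 35116 windows and 1 of 64 windows of the other amino acid transporters described below, and in 5 of the 8 genes, against 4.46% of all genes with a window. The second was found in 4 of the 14 windows, against 13.3% of all windows and 8 of the 64, and in 4 of the 8 genes, against 16.1% of all. A window of SLC3A2 and that of SLC7A1 held both motifs, which did not overlap. These are matches of letters, which do not show that a factor binds. Many of the 9 genes are known targets of ATF4 and all were chosen with earlier results known. Nothing is therefore read from their shares beside those of other genes. A gene with several windows also has more places for a match. The 5 windows with the first motif, and the 2 windows of the SLC7A5 and SLC3A2 pair with the second, are shown 5′ to 3′ along the gene's strand. The matches of the second motif in SLC1A5 and SLC7A1 are not shown. Capitals mark the motif, in SLC1A4 and in the first SLC3A2 line as its reverse complement.
SLC1A4 (chr2:64989381-64989410, plus strand): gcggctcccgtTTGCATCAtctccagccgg
SLC1A5 (chr19:46784893-46784922, minus strand): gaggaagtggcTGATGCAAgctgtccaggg
SLC3A2 (chr11:62881725-62881748, plus strand): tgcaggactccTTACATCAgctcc
SLC7A1 (chr13:29595663-29595692, minus strand): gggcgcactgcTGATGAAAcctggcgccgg
SLC38A1 (chr12:46266502-46266531, minus strand): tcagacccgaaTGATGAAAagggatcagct
SLC3A2 (chr11:62881652-62881680, plus strand): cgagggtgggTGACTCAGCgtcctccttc
SLC7A5 (chr16:87869491-87869519, minus strand): gcggggttccTGACGCAGCtgcgggcggc
In SLC1A4, SLC1A5 and SLC38A1 the motif began 7, 97 and 4 bases before the annotated start of that window. In SLC7A1 and SLC3A2 it began 7 and 37 bases after it. SLC1A4 and SLC1A5 held the form TGATGCAA. No match was found in the windows of SLC38A2 and SLC6A9 for either motif, which says only that these letters are not in those windows.

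Depth ranged from 22508145 to 50834401 counts per library. Levels are CPM, counts relative to the library's sum over the 9099 genes tested below, adjusted by TMM. Scaling by library totals, as used below, takes these sums without TMM factors. Levels between genes are compared per kilobase of annotated exon. The transgene checked the labels: IGF2BP1 was at 0.347 and 0.645 CPM in the parental libraries and at 10.6 to 48.0 CPM in the other 24. IGF2BP2 and IGF2BP3 transcripts were still counted, at 62.3 to 91.3 and 109 to 166 CPM in the 24 libraries. The parental libraries had 121 CPM of IGF2BP2 in control and 151 in arsenite, and 92.2 and 110 CPM of IGF2BP3. Counts per gene do not test the knockouts. Of the epithelial markers EPCAM, CDH1, KRT8, KRT18 and KRT19 were present in all libraries, from 25.0 CPM upward in the 24, whereas VIL1 reached at most 0.228 CPM and CEACAM6 had no count. PTPRC and COL1A2 stayed at or below 0.0416 CPM, PECAM1 and VWF below 1 CPM, and COL1A1 lay between 6.55 and 11.5 CPM. Library Y396E arsenite replicate 3 stood apart, with counts in 13897 genes against at least 20850 in each of the other 23. In bulk RNA, fewer cells of a kind and less RNA per cell cannot be told apart.

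In WT control cells the 9 genes spanned more than 2 orders of magnitude per kilobase. SLC7A5 had the highest level, 268 ± 22 CPM per kb (SD, n = 3), followed by its heavy chain SLC3A2 with 96.1 ± 11.6. SLC1A5 at 66.3 ± 5.92 and SLC38A2 at 56.9 ± 3.80 came next, and their library ranges overlapped. SLC38A1 followed at 28.1 ± 1.04, SLC7A1 at 15.7 ± 1.28 and SLC7A11 at 3.28 ± 0.542 CPM per kb. SLC6A9 (1.32 ± 0.201) and SLC1A4 (0.799 ± 0.0786) were the lowest. All other neighbours in this order were separated, the 3 libraries of one lying above the 3 of the next. In WT arsenite cells the order at the top differed, with SLC3A2 at 132 ± 1.35, SLC7A5 at 123 ± 1.92 and SLC1A5 at 113 ± 1.94 CPM per kb, each separated from the next. SLC1A4 (1.37 ± 0.155) and SLC6A9 (1.22 ± 0.0318) overlapped there. Exon length is that of all annotated exons of a gene, so a level per kilobase is too low where cells use a short form.

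**Figure D1:**
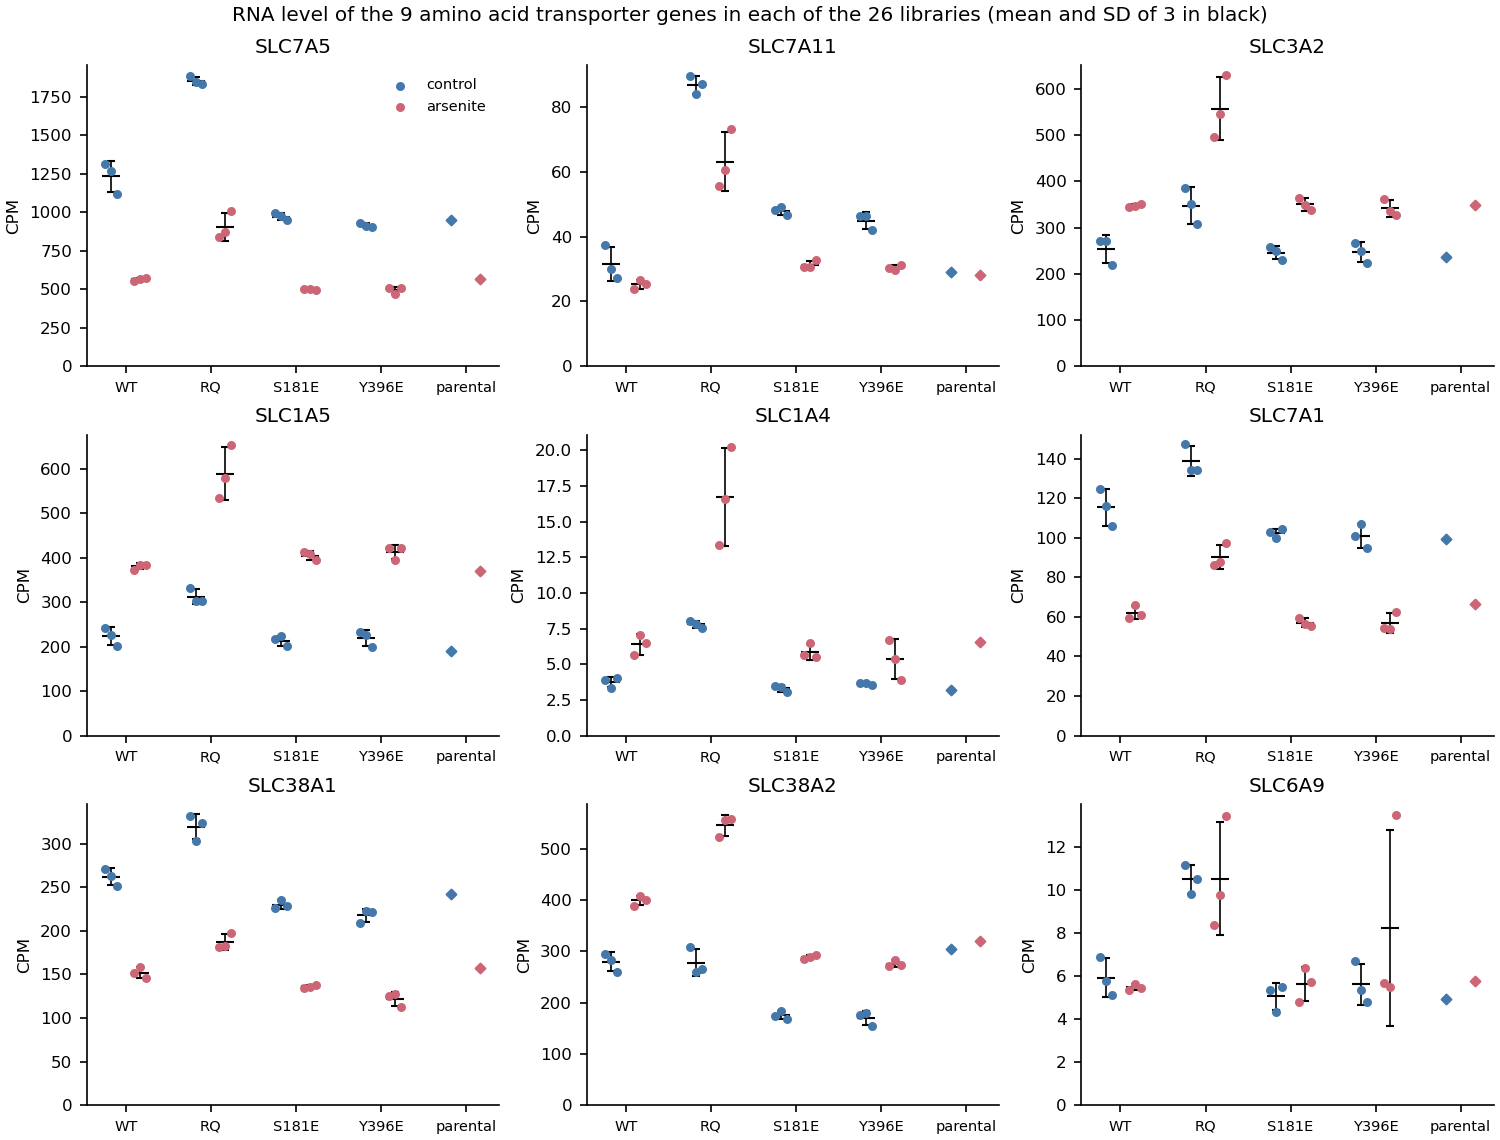
Level of each of the 9 genes in CPM (vertical axis, from 0) in every library, by population (horizontal axis), with control in blue, arsenite in red and the unreplicated parental libraries as diamonds. Black bars are the mean and SD of 3 libraries. The RQ libraries lay above those of WT in both treatments for every gene except SLC38A2 in control cells. The genes were chosen with this contrast known, and the share of all genes separated in this way was not counted.

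SLC7A5 (ENSG00000103257.9, chr16:87830023-87869507, minus strand) was the most abundant of the carriers. Its levels were 1310.2, 1269.5 and 1118 CPM in the WT control libraries, 929, 909 and 904 in Y396E, 991, 972 and 948 in S181E and 1883, 1845 and 1829 in RQ. After arsenite they were 556, 568 and 573 CPM in WT, 505, 468 and 506 in Y396E, 498, 499 and 496 in S181E and 836, 868 and 1006 in RQ. Every arsenite library lay below every control library of its own population, and the RQ libraries lay above those of the other 3 populations in each treatment. The fall with arsenite was -1.12 ± 0.06 (SE) on the log2 scale in WT, -0.89 ± 0.06 in Y396E, -0.96 ± 0.06 in S181E and -1.04 ± 0.06 in RQ. The parental pair had 947 CPM in control and 563 in arsenite. Of the near-identical pseudogenes, SLC7A5P2 had at most 1.10 CPM and SLC7A5P1 none, so that reads assigned to these copies were few beside those of SLC7A5.

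SLC3A2 (ENSG00000168003.19, chr11:62856004-62888880, plus strand), the heavy chain of that exchanger, went the other way. It had 272, 270.3 and 218 CPM in WT control libraries and 344, 347 and 351 in arsenite, and 386, 350.1 and 307 and then 496, 547 and 631 CPM in RQ. In S181E it had 258, 249 and 231 CPM in control and 364, 348 and 338 in arsenite, and in Y396E 267, 249.9 and 224 and 362, 335 and 327. Arsenite libraries lay above control libraries in each population, and S181E and Y396E overlapped with WT in both treatments. In all 4 control groups the library with replicate number 3 had the lowest level. The rise with arsenite was 0.45 ± 0.09 in WT, 0.47 ± 0.09 in Y396E, 0.51 ± 0.09 in S181E and 0.68 ± 0.09 in RQ on the log2 scale. The parental libraries had 236 and 348 CPM.

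The balance of heavy and light chain RNA therefore differed between treatments. The ratio of SLC3A2 to SLC7A5, both per kilobase within the same library, was 0.358 ± 0.0161 (SD, n = 3) in WT control cells and 1.07 ± 0.00737 in WT arsenite cells. It was 0.328 ± 0.0328 and 1.08 ± 0.0354 in RQ, 0.442 ± 0.0155 and 1.23 ± 0.0451 in S181E, and 0.472 ± 0.0359 and 1.21 ± 0.0712 in Y396E. In the parental pair it was 0.434 and 1.08. No control library exceeded 0.502 and no arsenite library was below 1.04. Within a library this ratio does not depend on the scaling between libraries. RQ overlapped with WT in both treatments, whereas S181E and Y396E lay above WT in both.

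**Figure D2:**
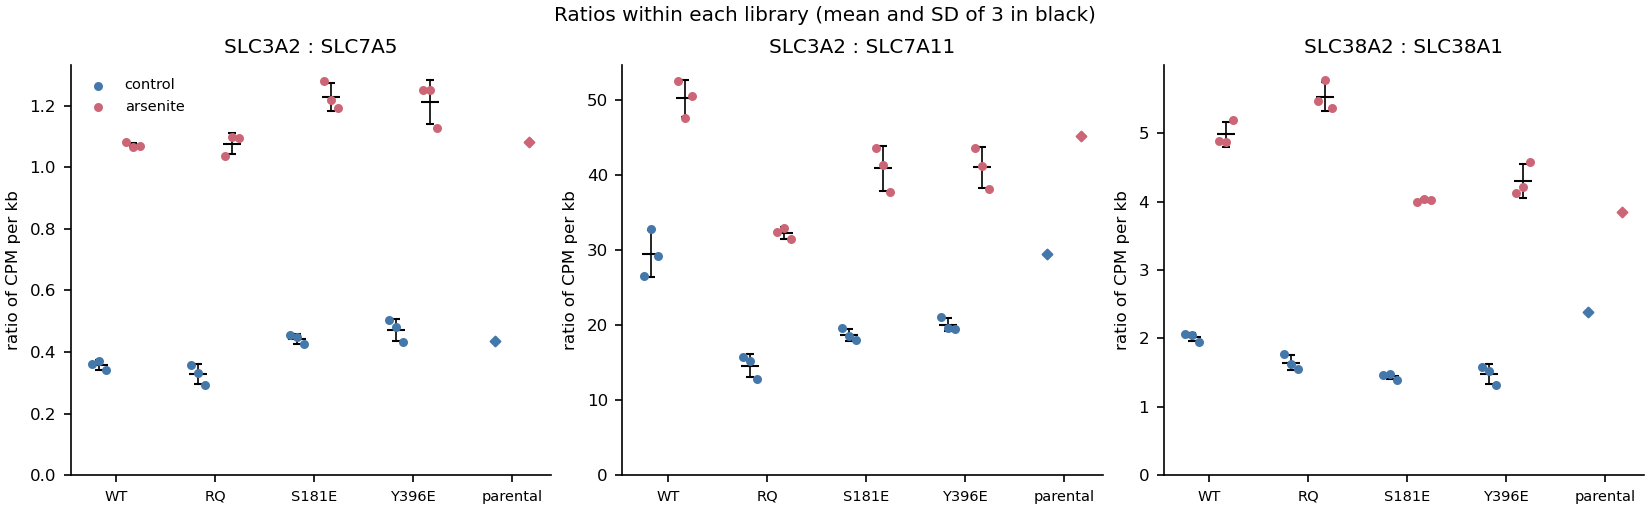
Ratios of levels per kilobase within each library (vertical axis, from 0, no unit) for SLC3A2 over SLC7A5, SLC3A2 over SLC7A11 and SLC38A2 over SLC38A1, by population and treatment, with the mean and SD of 3 libraries in black. Each of the 3 ratios was higher in every arsenite library than in every control library of the same population.

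SLC7A11 (ENSG00000151012.13, chr4:138164097-138242349, minus strand) encodes the cystine exchanger and had the largest difference between RQ and WT of the 7 genes that passed the main filter. Its levels were 37.4, 30.1 and 27.3 CPM in WT control libraries, 46.4, 46.5 and 42.0 in Y396E, 48.2, 49.2 and 46.7 in S181E and 89.6, 84.0 and 87.0 in RQ. In arsenite they were 23.9, 26.6 and 25.4 CPM in WT, 30.3, 29.7 and 31.3 in Y396E, 30.5, 30.7 and 32.7 in S181E and 55.8, 60.6 and 73.2 in RQ. All 3 mutants lay above WT in both treatments, RQ furthest. RQ had 2.74-fold the WT level in control cells and 2.50-fold in arsenite, S181E 1.51-fold and 1.24-fold, and Y396E 1.42-fold and 1.201-fold. The parental libraries had 29.2 CPM in control and 28.1 in arsenite, the first within and the second above the range of the WT libraries of that treatment. The log2 change with arsenite was -0.32 ± 0.09 in WT, -0.56 ± 0.09 in Y396E, -0.61 ± 0.09 in S181E and -0.46 ± 0.09 in RQ. The WT change did not pass with scaling by library totals (-0.16) or without WT control replicate 1 (-0.18). The ratio of SLC3A2 to SLC7A11 per kilobase was 29.5 ± 3.14 in WT control cells and 14.6 ± 1.53 in RQ control cells, and 50.3 ± 2.43 and 32.3 ± 0.763 in arsenite. Per kilobase, RNA of the heavy chain was thus above that of this light chain in every library.

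SLC7A1 (ENSG00000139514.13, chr13:29509414-29595688, minus strand) carries the cationic amino acids. It had 125, 116 and 106 CPM in WT control libraries and 59.3, 66.1 and 61.2 in arsenite, and 147, 134 and 134 and 86.1, 87.6 and 97.1 CPM in RQ. The ranges were 94.9 to 107 CPM over the S181E and Y396E control libraries and 54.0 to 62.7 CPM over their arsenite libraries. Only the S181E control libraries lay apart from WT, below it. RQ lay above WT in both treatments, by 0.26 ± 0.07 in control and 0.54 ± 0.07 in arsenite on the log2 scale. Arsenite lowered the level in each population, by 1.85-fold in WT and 1.53-fold in RQ. The parental values were 99.3 and 66.6 CPM.

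The sodium-coupled glutamine importers SLC38A1 (ENSG00000111371.16, chr12:46183063-46269119, minus strand) and SLC38A2 (ENSG00000134294.14, chr12:46358188-46372773, minus strand) are neighbours on chromosome 12, with 89068 bases between them. They moved in opposite directions with arsenite. SLC38A1 had 271, 263 and 252 CPM in WT control libraries and 151, 159 and 146 in arsenite, a log2 change of -0.78 ± 0.05. In RQ it had 332, 303 and 324 CPM in control and 181.1, 183 and 198 in arsenite. In S181E the levels were 226, 236 and 228 and then 135, 136 and 138 CPM, and in Y396E 209.6, 222 and 222 and then 125, 128 and 113. The RQ libraries lay above and the S181E and Y396E libraries below those of WT in both treatments, and the fall with arsenite was -0.84 ± 0.05 in Y396E, -0.76 ± 0.05 in S181E and -0.77 ± 0.05 in RQ.

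SLC38A2, the inducible member of this pair, had 295, 284 and 259 CPM in WT control libraries and 309, 260.3 and 265 in RQ, which overlapped. In arsenite it had 389, 408 and 401 CPM in WT and 522, 556 and 559 in RQ, and all 3 RQ libraries lay above those of WT. In S181E it had 174, 183 and 168 CPM in control and 284, 289 and 292 in arsenite, and in Y396E 175, 179 and 153 and 271, 283 and 273. These 2 populations lay below WT in both treatments. It rose with arsenite 1.43-fold in WT, 1.63-fold in Y396E, 1.65-fold in S181E and 1.963-fold in RQ. The parental pair had 305 and 320.3 CPM, a log2 ratio of 0.07. Per kilobase the ratio of SLC38A2 to SLC38A1 was 2.02 ± 0.0618 in WT control and 4.99 ± 0.186 in WT arsenite cells. In RQ it was 1.65 ± 0.109 and 5.54 ± 0.211.

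SLC1A5 (ENSG00000105281.13, chr19:46774883-46788594, minus strand) had 242, 226 and 202 CPM in WT control libraries and 373, 385 and 384 in arsenite, and 333, 302 and 303 and 534, 578 and 653 CPM in RQ. S181E and Y396E control libraries ranged from 200.2 to 234 CPM, overlapping with WT, and their arsenite libraries from 394 to 422, above WT. The log2 rise was 0.77 ± 0.07 in WT, 0.90 ± 0.07 in Y396E, 0.92 ± 0.07 in S181E and 0.91 ± 0.07 in RQ. The parental libraries had 191 and 369 CPM. Its relative SLC1A4 (ENSG00000115902.11, chr2:64988490-65023865, plus strand) was far lower, at 3.89, 3.33 and 4.02 CPM in WT control and 5.64, 7.08 and 6.52 in WT arsenite libraries. In RQ it had 8.002, 7.82 and 7.55 CPM in control and 13.4, 16.6 and 20.2 in arsenite, and the RQ libraries lay above those of WT in both treatments. S181E and Y396E libraries lay between 3.05 and 3.68 CPM in control and between 3.92 and 6.71 CPM in arsenite, and overlapped with WT. SLC6A9 (ENSG00000196517.13, chr1:43991500-44031462, minus strand), the glycine carrier, had 6.90, 5.74 and 5.13 CPM in WT control, 11.1, 9.79 and 10.5 in RQ control, 5.37, 5.64 and 5.44 in WT arsenite and 8.38, 9.75 and 13.4 in RQ arsenite libraries. In Y396E arsenite it had 5.69, 5.50 and 13.5 CPM, and the highest of these was the library with few detected genes. All other S181E and Y396E libraries lay between 4.33 and 6.68 CPM.

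The arsenite comparison asked how the carriers' RNA responds to the stress within each population. Of the 9 genes 7 passed the filter for testing, more than 10 CPM in at least 12 of the 24 libraries, and those 7 exceeded 10 CPM in all 24. Here a called gene is one that had both a Benjamini-Hochberg adjusted p below 0.05 and a change of over 1.2-fold. All 7 were called in each population, with SLC38A2, SLC1A5 and SLC3A2 higher and SLC7A5, SLC7A1, SLC38A1 and SLC7A11 lower. This count lies against a wide response. In WT 36.3% of the 9099 tested genes were called higher and 35.9% lower. In RQ these shares were 37.1% and 35.8%, in S181E 32.0% and 33.3%, and in Y396E 32.9% each. The median log2 change of the 7 was -0.32 in WT, -0.56 in Y396E, -0.61 in S181E and -0.46 in RQ, beside -0.03 to -0.01 over all tested genes. SLC1A4 and SLC6A9 were tested only with the lower filter, more than 1 CPM in at least 3 libraries. There SLC1A4 was called higher in each population, by 0.75 ± 0.17 in WT, 0.53 ± 0.17 in Y396E, 0.80 ± 0.17 in S181E and 1.09 ± 0.16 in RQ, and SLC6A9 in none. With that filter 32.9% of 12048 genes were called higher in WT, 30.8% in Y396E, 29.2% in S181E and 33.9% in RQ. In the parental pair, which has no replicate, the log2 ratios of arsenite to control were 1.02 for SLC1A4, 0.96 for SLC1A5, 0.56 for SLC3A2, -0.05 for SLC7A11, -0.58 for SLC7A1, -0.62 for SLC38A1 and -0.75 for SLC7A5. When libraries were scaled by their totals alone, the median over all genes shifted by 0.16 (WT) and 0.17 (RQ), and no called change of the 7 genes turned its direction.

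The comparison of RQ with WT asked which levels differ when the arginines of the first linker are replaced. SLC7A11, SLC7A5, SLC1A5, SLC3A2, SLC38A1 and SLC7A1 were called higher in RQ control cells, 6 of the 7 tested, where 1.0% of all tested genes were called higher. All 7 were called higher in RQ arsenite cells, where 1.36% of all tested genes were. Since earlier results of this contrast were known when the genes were chosen, nothing is read from these counts. The log2 differences in control cells were 1.45 ± 0.09 for SLC7A11, 0.59 ± 0.06 for SLC7A5, 0.48 ± 0.07 for SLC1A5, 0.46 ± 0.09 for SLC3A2, 0.29 ± 0.05 for SLC38A1 and 0.26 ± 0.07 for SLC7A1. SLC38A2 had -0.01 ± 0.06. In arsenite the differences were 1.32 ± 0.09, 0.68 ± 0.06, 0.63 ± 0.07, 0.68 ± 0.09, 0.30 ± 0.05 and 0.54 ± 0.07 in the same order, and 0.45 ± 0.06 for SLC38A2. With the lower filter SLC1A4 was called higher by 1.04 ± 0.17 in control and 1.37 ± 0.16 in arsenite, where 0.681% and 0.988% of genes were called higher. SLC6A9 had 0.81 ± 0.25 and 0.94 ± 0.24 and was called in neither, though without any filter it was in arsenite. The control calls of SLC7A1 and SLC38A1 rest on values near the fold threshold of 0.26. Both were lost with scaling by library totals, in a fit of only the groups compared, and without RQ control replicate 1 or WT control replicate 3, which left 4 called genes. The SLC7A1 call was also lost without RQ control replicate 2 or 3 and with other filters on genes.

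RQ arsenite replicate 3 had the highest level of its group for all 9 genes. Without this library the log2 differences in arsenite were 1.198 for SLC7A11, 0.59 for SLC7A5, 0.58 for SLC3A2, 0.54 for SLC1A5, 0.48 for SLC7A1 and 0.43 for SLC38A2, all still called, and 0.26 for SLC38A1, which was not. The transgene moved with the comparison too. IGF2BP1 had 12.2 to 15.6 CPM in RQ and 10.6 to 14.7 in WT control libraries, which overlapped, and 46.2 to 48.0 against 27.9 to 30.02 CPM in arsenite. In S181E and Y396E arsenite libraries IGF2BP1 was at 42.3 to 44.7 CPM, also above WT. The part of the transgene level in the differences between RQ and WT was not tested.

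Other amino acid transporters were examined beside the 9 genes. A list of 53 genes, written by function and holding other plasma membrane, lysosomal and mitochondrial carriers, had 24 tested members. It leaves out the 9 genes, which were chosen with the contrast of RQ and WT known. Nothing is therefore read from how the list and the 9 genes differ in that contrast. None of the 24 was called between RQ and WT in control or in arsenite, by edgeR's quasi-likelihood test or by DESeq2, and in each treatment 1 of them had an unadjusted p under 0.05, beside 14.1% and 11.2% of all tested genes. Their log2 differences ran from -0.22 to 0.15 in control and from -0.22 to 0.16 in arsenite, with medians of -0.04 in each. The lower filter admitted 32 of the 53. The sole call there was SLC43A1 (LAT3, a uniporter of large neutral amino acids), among 8 genes that only this filter admitted. Named for that reason, it was higher in RQ by 1.32 ± 0.19 in control and 1.08 ± 0.18 in arsenite. It had 3.19 ± 0.324 CPM in WT and 8.05 ± 1.04 in RQ control cells, and 4.70 ± 0.340 and 9.98 ± 1.959 in arsenite (SD, n = 3).

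**Figure D3:**
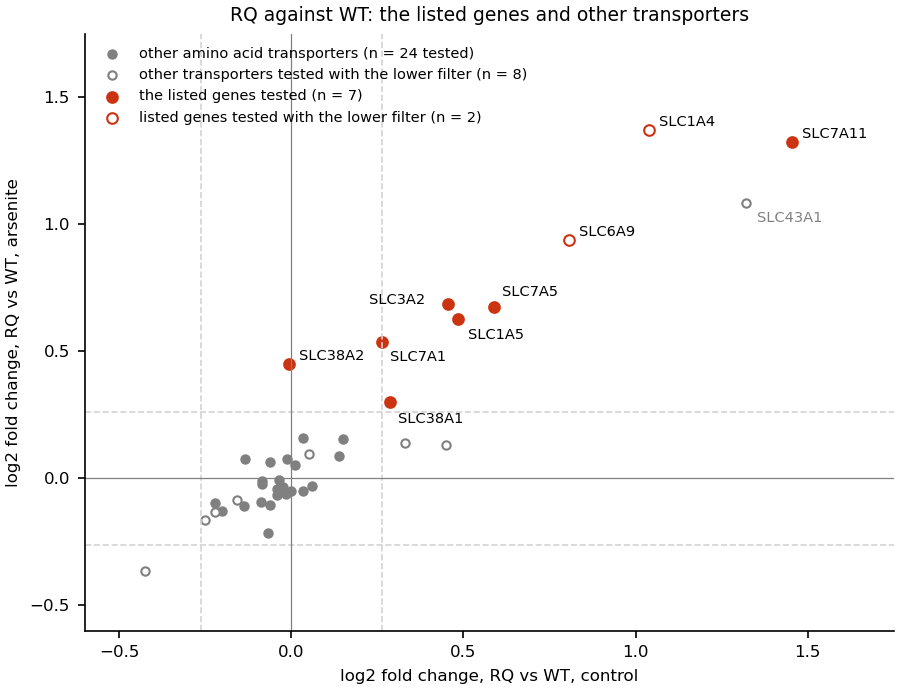
log2 fold change of RQ against WT in control (horizontal axis) and in arsenite (vertical axis) for the 9 genes (red, open where only the lower filter admitted the gene) and the other amino acid transporters (grey, 24 filled and 8 open by the same filters), with dashed lines at the fold threshold of 1.2. The filled grey points lie between -0.22 and 0.16 on both axes and the open ones between -0.43 and 0.45, apart from SLC43A1 at 1.32 and 1.08, and the red points were chosen with this contrast known.

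With arsenite in WT cells 14 of the 24 other transporters were called, 4 higher and 10 lower, beside the 36.3% and 35.9% of all tested genes, and the numbers were 11 in RQ and 13 each in S181E and Y396E. The largest rises in WT were those of the mitochondrial aspartate-glutamate carriers SLC25A12 (1.25 ± 0.09, adjusted p = 2.84e-12) and SLC25A13 (0.74 ± 0.08, adjusted p = 7.17e-09) and of the taurine carrier SLC6A6 (0.37 ± 0.08, adjusted p = 0.000285). The largest falls were those of the lysosomal cysteine carrier MFSD12 (-1.12 ± 0.07, adjusted p = 3.96e-13), of SLC7A6, another light chain of SLC3A2 (-0.92 ± 0.13, adjusted p = 5.62e-07), and of the mitochondrial ornithine carrier SLC25A15 (-0.75 ± 0.08, adjusted p = 3.83e-09). These p-values come from edgeR and are adjusted over the 9099 genes. RNA of the light chains SLC7A5, SLC7A6 and SLC7A11 was thus lower with arsenite in WT, while that of SLC3A2 was higher. Of the 5 tested lysosomal carriers 4 were called lower in WT, 2 each in Y396E and RQ and 1 in S181E, and none higher. Against WT, 7 of the 24 were called in S181E control cells (2 higher, 5 lower) and 6 in Y396E (1 higher, 5 lower), beside 31.1% and 28.6% of all tested genes, which is no larger a share. In arsenite none was called in S181E by edgeR or DESeq2, beside 13.7% of all tested genes. There 7 had an unadjusted p under 0.05, beside 34.0% of all tested genes. In Y396E arsenite 6 were called, beside 21.7% of all tested genes. Only 1 was called there without Y396E arsenite replicate 3 or WT arsenite replicate 2, and 3 without WT arsenite replicate 1 or 3.

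The lists of neighbouring pathways were written with earlier results known and lend no independent support. The counts of each list stand beside the shares of all tested genes. With arsenite in WT, 36.3% were called higher and 35.9% lower. For RQ against WT, 1.0% were called higher in control and 1.36% in arsenite. Against WT in either direction, 31.1% were called in S181E and 28.6% in Y396E control cells, and 13.7% and 21.7% in arsenite. Of 15 tested genes of the integrated stress response, 9 rose and 3 fell. DDIT3, the pro-apoptotic factor CHOP, rose by 3.48 ± 0.09 and ATF3 by 3.45 ± 0.09, while ATF5 (-1.07 ± 0.08) and CEBPG (-0.51 ± 0.06), a partner of ATF4, fell. Between RQ and WT 2 genes of this list were higher in control, TRIB3 (1.00 ± 0.12), an inhibitor of ATF4, and CEBPG (0.40 ± 0.06). In arsenite 7 were higher and none lower, led by TRIB3 (1.83 ± 0.12) and by DDIT4 (1.47 ± 0.09), an inhibitor of mTORC1. Because earlier results were known, these differences between RQ and WT are given as a description without p-values. ATF4 itself, named after its value was seen, was 1 of the 7, at 0.42 ± 0.04. Against WT, 2 genes of this list were higher and 2 lower in S181E control cells, and 3 higher and 1 lower in Y396E. In arsenite none was higher in either mutant, and 4 were lower in S181E and 5 in Y396E. Of 6 tested genes of glutamine, glutamate and asparagine use, 5 rose with arsenite in WT, led by the transaminase GOT1 (1.16 ± 0.07) and glutamine synthetase GLUL (0.96 ± 0.05). The transaminases GPT2 and GOT1 were higher in RQ, by 0.72 ± 0.13 and 0.31 ± 0.07 in control and by 0.74 ± 0.13 and 0.59 ± 0.07 in arsenite. In control cells GOT1 was also higher in S181E (0.40 ± 0.07) and Y396E (0.42 ± 0.07), where 4 of the 6 genes were called higher in each. In arsenite none of the 6 was called in either mutant by edgeR or DESeq2. There 1 had an unadjusted p under 0.05 in each, beside 34.0% of all tested genes in S181E and 45.1% in Y396E.

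Of the glutathione and NRF2 genes, none of the 9 tested was called between RQ and WT in either treatment by edgeR or DESeq2. In control 4 of them had an unadjusted p under 0.05 and in arsenite 3, beside 14.1% and 11.2% of all tested genes. In S181E control cells 6 of the 9 were higher and in Y396E 5, none lower, where 31.1% and 28.6% of all tested genes were called in either direction. In arsenite 2 of the 9 were higher in each mutant and none lower. In control cells the thioredoxin reductase TXNRD1 had 0.70 ± 0.04 in S181E and 0.63 ± 0.04 in Y396E on the log2 scale. GCLM, the modifier subunit of the first enzyme of glutathione synthesis, had 0.49 ± 0.06 and 0.31 ± 0.06 in these control cells. These 2 genes were named after their values were seen. With arsenite in WT 3 genes of this list rose and 1 fell. They were led by heme oxygenase HMOX1 (0.92 ± 0.11) and glutathione synthetase GSS (0.60 ± 0.05), and the fall was that of TXNRD1 (-0.66 ± 0.04). Of 12 tested genes that link amino acid sensing to mTORC1, 3 rose with arsenite in WT, led by FLCN (0.85 ± 0.18) and NPRL3 (0.43 ± 0.08), and 6 fell, led by LAMTOR1 (-0.83 ± 0.05) and LAMTOR5 (-0.70 ± 0.11), which anchor the Rag GTPases to lysosomes. None of the 12 was called between RQ and WT by either tool. An unadjusted p under 0.05 was found for 0 in control and 2 in arsenite, beside 14.1% and 11.2% of all tested genes.

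The comparisons of S181E and Y396E with WT used the same WT libraries, so their values are given side by side only. In control cells 3 of the 7 tested genes were called in S181E and 4 in Y396E, where 31.1% and 28.6% of all tested genes were called. SLC7A11 was higher in both, by 0.60 ± 0.09 and 0.50 ± 0.09. SLC38A2 was lower, at -0.67 ± 0.06 and -0.72 ± 0.06, and so was SLC7A5, at -0.34 ± 0.06 and -0.43 ± 0.06. SLC38A1 was called lower in Y396E (-0.27 ± 0.05) and had -0.19 ± 0.05 in S181E. In arsenite 2 genes were called in S181E, where 13.7% of all tested genes were, and 3 in Y396E, where 21.7% were. SLC7A11 had 0.31 ± 0.09 and 0.26 ± 0.09 there, SLC38A2 -0.47 ± 0.06 and -0.53 ± 0.06, and SLC38A1 -0.16 ± 0.05 and, called, -0.32 ± 0.05. SLC3A2, SLC1A5 and SLC7A1 were called in neither mutant in either treatment, with log2 differences between -0.20 and 0.11. When libraries were scaled by their totals alone, the median over all genes shifted by 0.16 for S181E and 0.13 for Y396E in control, the uncalled differences of SLC3A2 and SLC1A5 in control changed sign for both, and SLC7A5 in S181E (-0.19) and SLC38A1 in Y396E (-0.14) were no longer called. The SLC7A11 call in Y396E arsenite lay at the threshold. It was lost in 7 of the 32 alternatives that keep the fold threshold, among them the fits without Y396E arsenite replicate 3 (0.24) or WT arsenite replicate 1 (0.23), whereas SLC38A1 and SLC38A2 stayed called in Y396E arsenite in every fit that left out 1 library. The SLC7A11 call in S181E arsenite was lost without WT arsenite replicate 1 or S181E arsenite replicate 3 (0.27 in each), which left 1 called gene. The SLC38A1 call in Y396E control was also lost without WT control replicate 1 or 2 or Y396E control replicate 1 (-0.26 to -0.24). IGF2BP1 had 17.4 to 20.4 CPM in S181E and 15.3 to 17.6 in Y396E control libraries, all above WT, and its part in these differences was not tested.

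Whether the arsenite response itself differed from that of WT was tested as an interaction. For RQ 1 of the 7 genes was called, where 0.22% of all tested genes were. That gene was SLC38A2, whose rise was larger in RQ than in WT by 0.46 ± 0.09 on the log2 scale. The next largest were 0.27 ± 0.10 for SLC7A1, whose fall was smaller in RQ and which was not called, and 0.23 ± 0.12 for SLC3A2. The SLC38A2 call was lost in 5 of the fits that left out 1 library, in which the difference was 0.41 to 0.44. For S181E and Y396E none of the 7 was called, where 16.4% and 21.5% of all tested genes were. In each, 2 of the 7 had an unadjusted p under 0.05, beside 33.5% and 39.0% of all tested genes. DESeq2 also called none. Their differences from the WT response ran from -0.29 to 0.21 in S181E and from -0.24 to 0.23 in Y396E, the lowest being SLC7A11 in both. Without WT control replicate 1 the SLC7A11 difference was called in both, at -0.43 and -0.38. In Y396E the SLC7A5 difference was called without Y396E arsenite replicate 2 (0.27) or WT control replicate 3 (0.30), and in S181E that of SLC7A11 was also called with scaling by library totals (-0.40).

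The genes whose levels followed each carrier most closely were ranked by Pearson's r of log2 CPM over the 24 libraries, a description, since these libraries share treatments and populations. The 2 closest genes were MTHFD2 (0.96) and CEBPG (0.88) for SLC7A11, HMGA2 and SLC7A1 (both 0.98) for SLC7A5, and PCK2 and SLC1A5 (both 0.95) for SLC3A2. They were SLC7A5 (0.98) and SLC38A1 (0.97) for SLC7A1, AP1AR (0.99) and SMURF2 (0.98) for SLC38A1, and ZNF16 and ACSL3 (both 0.97) for SLC38A2. For SLC1A5 they were CARS1 and BUD31 (both 0.96), for SLC1A4 PCK2 (0.98) and TUBE1 (0.95), and for SLC6A9 JDP2 (0.87) and TMC6 (0.83). Among the carriers themselves, SLC7A5, SLC7A1 and SLC38A1, which fell with arsenite, thus lay close to one another, and SLC3A2 lay close to SLC1A5. Summed over the 9 genes, the level was 2408 ± 193 CPM in WT control and 3354 ± 126 in RQ control cells, and 1944 ± 33.3 and 2963 ± 263 CPM in arsenite (SD, n = 3). The sum lay between 1848 and 2025 CPM over the S181E and Y396E control libraries and between 1703 and 1794 over their arsenite libraries. SLC7A5 makes up the largest share of these sums.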

How the data were processed

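Poly(A) RNA-seq counts of 26 libraries were analysed, 24 with mCherry-IGF2BP1 in 8 groups of 3 and 2 parental ones. The authors aligned reads to hg38 with STAR 2.7.11b, and per the file headers they counted reads per gene with featureCounts of Subread 2.0.6 (strand setting 2, GENCODE release 46). The files as deposited hold raw, unscaled counts of reads for each gene, and coordinates are those of the files. Symbols were taken from GENCODE release 44, which held 62541 of the 63086 identifiers (99.1%). No library pair was identical, and replicates differed by more than counting noise (chi-square per gene 2.67 to 60.1). Dishes were plated separately, so p-values cover the spread between dishes of 1 population.

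Protein-coding genes with more than 10 CPM in at least 12 of the 24 libraries (9099) were fitted in 1 model with edgeR 4.0.16 in R 4.3.3 (glmQLFit and glmQLFTest, trimmed mean of M-values (TMM) factors 0.865 to 1.09, 16 residual degrees of freedom, common biological coefficient of variation 0.0682), with Benjamini-Hochberg adjustment over all tested genes. A standard error is the size of the log2 change divided by the square root of F. In simulated RQ and WT control counts of the 9099 genes, 96 of 100 changes of 1.5-fold and 100 of 100 of 2-fold were called, with 5 false calls among 8899 unchanged genes. The members and lists were chosen with earlier results of these data known. Beside the 9 genes the text names, of the other transporters, the 3 largest called rises and falls and, of each pathway list, the 2 largest, for arsenite in WT and for RQ against WT in each treatment, plus the 2 genes closest to each member. Same-numbered RQ and WT libraries deviated together from their group means (r of 0.29 to 0.52 in control and 0.15 in arsenite over the 3 pairs), so the numbers pair these libraries, although the labels do not say why, and in no other comparison did all 3 pairs exceed 0.1. The log2 differences and standard errors given in the text come from the fit without this pairing. Alternatives were DESeq2 1.42.0, its size factors (RLE), library totals (of the tested genes, without TMM factors), all gene types and a replicate block. Others were fits of only those groups being compared, other filters, other fold thresholds and each library left out.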

Additional observations from a re-analysis of the deposited data

Results flagged for a closer look

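Differences between arsenite responses were called for 7 pairs of a carrier and a mutant, each as an interaction term in edgeR with p adjusted over all tested genes. SLC38A2 rose more in RQ than in WT by 0.46 on the log2 scale, as described above. The fall of the lysosomal carrier MFSD12 was smaller in S181E and Y396E than in WT, by 0.64 ± 0.10 (adjusted p = 0.000217) and 0.59 ± 0.10 (adjusted p = 0.000364). SLC25A12, an aspartate-glutamate carrier of mitochondria, rose less in both, with differences of -0.42 ± 0.12 (adjusted p = 0.0217) and -0.39 ± 0.12 (adjusted p = 0.0236). SLC43A2 (LAT4, a uniporter of large neutral amino acids) differed by 0.30 ± 0.10 in S181E (adjusted p = 0.0446) and SLC38A10 by 0.32 ± 0.10 in Y396E (adjusted p = 0.0283). Both mutants were set against the same WT libraries. For each of them 3 of 24 other transporters and 0 of the 7 tested members were called, beside 16.4% of all tested genes in S181E and 21.5% in Y396E, so these calls are no more frequent than over all genes. No group had 4 or more libraries, so single libraries could not be flagged as outliers.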

How the results depend on the processing

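No called change of the 7 genes of the main filter turned its direction under an alternative, whereas some uncalled differences near 0 did. With a fold threshold of 1.5 the called members numbered 4 for arsenite in WT, 2 for RQ in control and 4 in arsenite, 0 for S181E in arsenite, 1 for Y396E in control and 0 in arsenite, and 0 for the RQ response, and the other transporters 5 for arsenite in S181E and in Y396E, 6 in RQ, 7 in WT, and 0 for S181E in control and for Y396E in both treatments. With no fold threshold the called members were 5 for S181E in control, 4 in arsenite and 1 for the Y396E response, and the other transporters 2 for S181E in arsenite. Scaling by library totals gave 1 called member for the S181E response. With no filter 17 other transporters were called for arsenite in RQ, and 1 for RQ in each treatment, as with the lower filter. Fits of only the groups compared called 1 other transporter for S181E and 0 for Y396E in arsenite.

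Leaving out 1 library at a time gave 6 to 7 called members for arsenite in WT and 7 in the other populations, 4 to 6 for RQ in control and 6 to 7 in arsenite, 3 and 1 to 2 for S181E, 3 to 4 and 2 to 3 for Y396E, and 0 to 1 for each response. Among the other transporters it gave 11 to 16 for arsenite in Y396E, 11 to 13 in S181E and RQ, 11 to 15 in WT, 0 for RQ, 5 to 8 and 0 to 1 for S181E, and 5 to 8 and 1 to 7 for Y396E. The lowest count for Y396E in arsenite, 1, was reached without Y396E arsenite replicate 3 and without WT arsenite replicate 2, and 3 remained called without WT arsenite replicate 1 or 3. With the replicate block 13 other transporters were called for arsenite in RQ in place of 11, and no other count of calls differed. The cause of these differences was not tested, except that the lower filters admit more genes and a left-out library leaves fewer samples. SLC1A4 and SLC6A9, the least abundant, were measured with less precision than the other 7 genes.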
